A study of Mus musculus with 6 samples.

Results

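The small intestinal epithelium of antigen-free (AF) mice was set against that of specific pathogen free (SPF) mice by RNA-seq of sorted cells. The comparison used AF replicates 2 and 3 and SPF replicates 3 and 4, which are the 4 libraries of the 6 in the series whose titles carry those group prefixes. It covered 47731 of the 51912 genes listed, since the 4181 genes on chromosomes X and Y were left out. All mice were C57BL/6. The labels describe AF mice as free of foreign antigens from microbiota and from food, and SPF mice as free of particular pathogens. AF therefore differs from SPF in both the microbiota and the food antigens. The remaining 2 libraries came from germ-free (GF) mice, which lack a microbiota, and are given for reference beside the AF and SPF values. The sources used here give no age, sex, diet composition or time of day of collection. Nothing states that the 2 samples of a group were separate animals, so each p-value reflects the spread between these samples, which may be technical.

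The 6 libraries held 16109488 to 19417054 expected counts, of which mitochondrial genes took 17.9 to 35.3%. Levels below are CPM (counts scaled to a library's normalised total), in which 1 count was worth 0.0369 to 0.0793 CPM. SPF replicate 4 stood apart in crypt, secretory and enterocyte markers. Its median level of the Paneth cell list, on a log2 scale centred over the 6 libraries, was -4.55, against 0.60 in SPF replicate 3 and 0.17 and 0.95 in the AF libraries. The same measure for the proliferation list was -2.22 in SPF replicate 4 and 1.01 in SPF replicate 3. Brush border enterocyte markers went the other way, with a level of 0.80 in SPF replicate 4, -0.28 in SPF replicate 3, -0.58 and 0.14 in GF and 0.27 and -0.13 in AF, and a sum of 62700 CPM in SPF replicate 4 against 29900 CPM in replicate 3. The epithelial identity list differed little, from -0.15 to 0.13 over the 6 libraries. Y-linked Eif2s3y was at 0 counts in both SPF libraries and at 24.5 and 21 CPM in the AF libraries, while Xist, the RNA that silences an X chromosome in females, stood at 131 and 97.4 CPM in SPF and at 0 and 0.18 CPM in AF. GF replicate 3 held both, Xist at 14.9 CPM and Eif2s3y at 22.7 CPM. Sex and group therefore cannot be told apart in AF versus SPF. Each group's tables also bear a date-like number of their own, so a batch and the group cannot be told apart either.

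The epithelium of the small intestine absorbs nutrients and meets both food and microbes. Its enterocytes digest peptides and sugars at the brush border, take up fat and carotenoids, and metabolise foreign compounds. They also secrete antimicrobial proteins, export IgA, and can display peptides to T cells on MHC class I and, under interferon gamma, on MHC class II. Isx is a homeodomain repressor of the intestine that is induced by retinoic acid and holds down Bco1 and Scarb1, so that vitamin A limits its own uptake.

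Of 13241 genes that passed the filter on low counts, 3 (0.0227%) were called by edgeR's quasi-likelihood test at a Benjamini-Hochberg adjusted p below 0.05. Pkd1l2 rose in AF (1 gene, 0.00755%), and Isx and the nitric oxide synthase gene Nos2 fell (2 genes, 0.0151%). Many more genes differed in direction without passing. At an unadjusted p below 0.05, 637 genes (4.81%) were higher in AF and 869 (6.56%) lower, and DESeq2, run as an alternative, called 103 higher (0.793%) and 158 lower (1.22%). Both AF libraries lay above both SPF libraries for 2906 genes (21.9%) and below them for 3001 genes (22.7%). These shares are the background for the counts given for each gene list below. The median log2 fold change over all genes tested, AF over SPF, was 0.012, and 49.1% of genes were lower. All 3 called genes lost the call when either AF library was left out, with edgeR adjusted p of 0.386 to 0.708, and when either GF library was left out, with 0.053 to 0.1. When SPF replicate 3 or 4 was left out all 3 kept it. Nos2 also lost the call when libraries were scaled by their totals alone (adjusted p = 0.119) and, with Pkd1l2, in limma on TPM (adjusted p = 0.174 and 0.0967). In a fit of the 4 AF and SPF libraries alone, in which 12646 genes were tested, none of the 3 passed (adjusted p = 0.0613 for Isx and 0.108 for the other 2).

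Among the largest differences were those of carotenoid uptake, where Isx was nearly absent from AF and the genes it is known to repress were high. Isx stood at 72.3 and 95.7 CPM in SPF replicates 3 and 4, at 82.2 and 82.8 in GF replicates 1 and 3, and at 1.35 and 0.84 CPM in AF replicates 2 and 3. Both AF libraries lay far below the other 4. Isx fell 76.7-fold by the means, a log2 fold change of -6.27 (SE 0.33, edgeR adjusted p = 0.0173), and it also passed in AF versus GF, with -6.25 (SE 0.33, adjusted p = 0.0177). AF versus GF called 2 genes in all (0.0151%), Isx and Pkd1l2.

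Bco1, the enzyme that cleaves beta-carotene to retinal, was at 4.03 and 9.68 CPM in SPF and at 1160 and 910.4 CPM in AF. That is 151-fold by the means, and a log2 fold change of 7.24 (SE 0.86), yet the edgeR adjusted p was 0.216, while that of DESeq2 was 1.81e-26. Scarb1, the receptor through which enterocytes take up carotenoids and cholesterol, was at 9.68 and 31.2 CPM in SPF and at 737 and 564 CPM in AF, a log2 fold change of 4.996 (SE 0.76, edgeR adjusted p = 0.276, DESeq2 adjusted p = 5.19e-12). For both genes the AF libraries were close together and far above SPF. GF lay with SPF, Bco1 at 6.54 and 21.8 CPM and Scarb1 at 6.69 and 16.4 CPM. Per transcript length, in TPM, Isx was the most abundant of the 3 in SPF, with 62.1 and 51.4 TPM against 2.57 and 3.82 for Bco1. In AF the order was turned, with 0.6 and 0.49 TPM for Isx, 383 and 398 for Bco1 and 227 and 230 for Scarb1.

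Pkd1l2, a large membrane protein related to polycystin, rose in AF, and it is the neighbour of Bco1. It is annotated on GRCm38 at chr8:116995679-117082449 on the minus strand, and Bco1 at chr8:117095854-117133720 on the plus strand. The 2 genes point away from each other with 13404 bases between their annotated starts. Pkd1l2 had 4 counts in the 2 SPF libraries together (0.046 and 0.21 CPM) and 924 in the AF libraries (35.5 and 28.6 CPM). The ratio was 285, with an exact 95% counting interval of 111 to 1050, which covers counting error only. The log2 fold change was 8.05 (SE 0.56, edgeR adjusted p = 0.0376), and in AF versus GF it was 9.17 (SE 0.60, adjusted p = 0.0299). The antisense gene Gm15395 had 2 counts in AF and 0 in SPF. Gcsh, the gene on the far side of Pkd1l2, chosen after its values were seen, was not called and had a log2 fold change of 0.37 (SE 0.44, edgeR adjusted p = 0.798). Isx itself lies elsewhere on the same chromosome, at chr8:74873173-74893506.

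The 250 bases before the RefSeq starts of Bco1 and Pkd1l2 are printed 5′ to 3′ on each gene's own strand, since both neighbours were high where this homeodomain repressor was low. Capitals mark each TAAT, the core that homeodomain proteins commonly bind, read on either strand. The Bco1 window is chr8:117095615-117095864 (plus strand) and the Pkd1l2 window chr8:117082450-117082699 (minus strand), both on GRCm38.p6.
Bco1: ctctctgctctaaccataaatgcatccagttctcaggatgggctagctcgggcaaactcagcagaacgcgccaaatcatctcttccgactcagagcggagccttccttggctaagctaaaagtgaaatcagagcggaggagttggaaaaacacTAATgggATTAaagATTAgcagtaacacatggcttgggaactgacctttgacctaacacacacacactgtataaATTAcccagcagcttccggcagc
Pkd1l2: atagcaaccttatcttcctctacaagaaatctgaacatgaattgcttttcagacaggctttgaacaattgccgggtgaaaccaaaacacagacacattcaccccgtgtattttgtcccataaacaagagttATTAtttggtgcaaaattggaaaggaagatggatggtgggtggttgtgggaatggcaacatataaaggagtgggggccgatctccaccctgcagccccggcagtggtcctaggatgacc
The Bco1 window holds 4 such cores, the first starting 97 bases and the last 23 bases before the start. The Pkd1l2 window holds 1, at 119 bases. Of all 32851 RefSeq windows of this length, 9.62% hold at least 4 TAAT cores and 54.9% at least 1. These are matches of letters, with no binding data behind them.

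Other genes of carotenoid and retinoid handling differed less and in both directions. Of 34 listed, 27 were tested, 11 higher and 16 lower, with a median log2 fold change of -0.21, which was 0.17 without SPF replicate 4 and -0.39 without SPF replicate 3. Besides Isx, edgeR called 0. At an unadjusted p below 0.05 it had 4 higher and 5 lower, and DESeq2 called 2 and 4. Cd36, a fatty acid and carotenoid scavenger receptor, was at 22.4 and 35.7 CPM in SPF and at 11.2 and 7.82 CPM in AF (edgeR adjusted p = 0.313). The retinal dehydrogenase Aldh1a1 was at 126 and 336 CPM in SPF and at 48 and 41.1 CPM in AF, with a log2 fold change of -2.37 (SE 0.56, edgeR adjusted p = 0.372, DESeq2 adjusted p = 0.00232). Its relative Aldh1a7 was at 20.8 and 57.2 CPM against 9.12 and 7.58 CPM. Rbp2, which carries retinol inside the enterocyte, was at 1429 and 2869 CPM in SPF and at 945 and 772 CPM in AF. The last 3 genes were chosen after their values were seen, and in all 4 both AF libraries lay below both SPF libraries. Over the 27 genes tested, 9 had both AF libraries below both SPF libraries and 7 had both above.

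**Figure D1:**
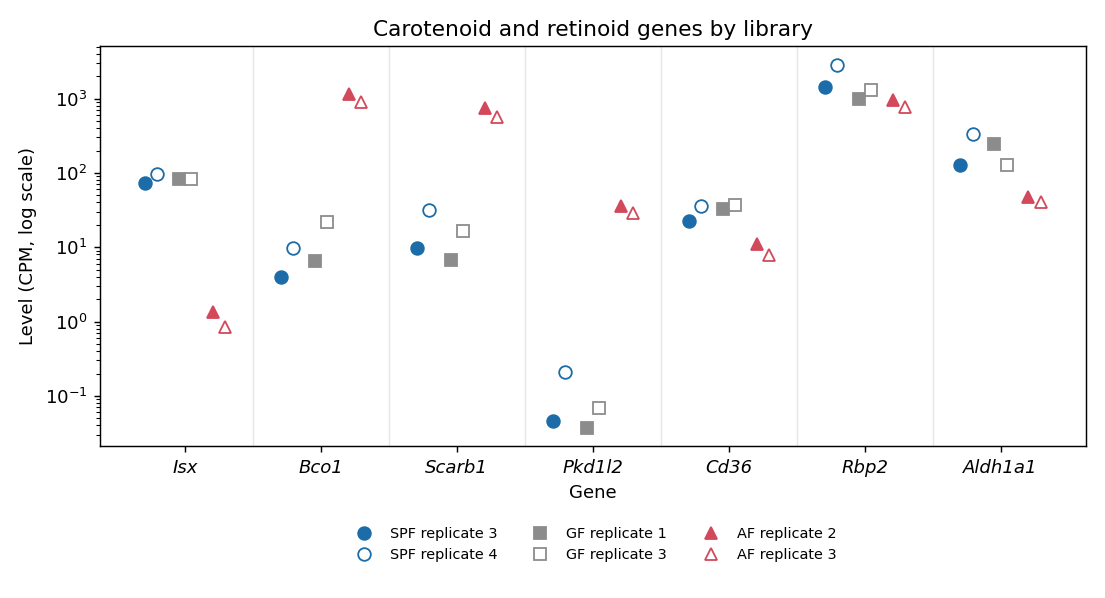
Levels of 7 genes of carotenoid and retinoid handling, with the neighbour of Bco1, in each of the 6 libraries, in CPM on a log axis. Circles are SPF, squares GF and triangles AF. Isx is low only in the AF libraries (1.35 and 0.84 CPM), where Bco1, Scarb1 and Pkd1l2 are high.

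Genes of epithelial host defence were lower in AF, led by Nos2, the inducible nitric oxide synthase. Nos2 stood at 42.5 and 24.8 CPM in SPF, at 12.7 and 8.84 CPM in GF and at 0.32 and 0.18 CPM in AF, and the groups did not overlap. It fell 135-fold by the means, a log2 fold change of -7.08 (SE 0.52, edgeR adjusted p = 0.0376). In AF versus GF the log2 fold change was -5.44 (SE 0.50), with an adjusted p of 0.153. Nos2 lies at chr11:78920787-78960254.

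Reg3g and Reg3b encode secreted C-type lectins that act on bacteria near the epithelium. Reg3g was at 1595 and 692 CPM in SPF, at 219 and 239 CPM in GF and at 31.2 and 38.9 CPM in AF. Reg3b was at 2997 and 1085 CPM, at 347 and 422 CPM and at 129 and 171 CPM. Both showed the same order of the groups, with no overlap. Reg3g was 32.6-fold lower in AF than in SPF by the means, a log2 fold change of -5.03 (SE 0.53, edgeR adjusted p = 0.187, DESeq2 adjusted p = 1.35e-26), and Reg3b 13.6-fold, with -3.77 (SE 0.59, edgeR adjusted p = 0.276, DESeq2 adjusted p = 4.17e-11). The genes lie on chromosome 6, Reg3g at chr6:78466269-78468872 and Reg3b at chr6:78370657-78373466.

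Duox2, which makes hydrogen peroxide at the cell surface, was at 116 and 74.7 CPM in SPF and at 8.09 and 5.05 CPM in AF. Its maturation factor Duoxa2 was at 31.6 and 23.1 CPM against 2.38 and 0.36 CPM. The retinol-binding acute phase gene Saa1 was at 10.3 and 4.36 CPM in SPF, and its AF libraries held 1 count together, 231-fold fewer than SPF for the depth (exact 95% interval from counting, 41.2 to 9170). Pigr, which carries IgA across the epithelium, was at 3192 and 4099 CPM in SPF and at 1254 and 1514 CPM in AF. All 4 were separated between the groups, and DESeq2 called each (adjusted p = 1.25e-10, 1.28e-04, 0.00112 and 1.10e-04), while edgeR called none of them (adjusted p = 0.242, 0.357, 0.313 and 0.388). Duoxa2, Saa1 and Pigr were chosen after their values were seen.

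Of the 42 host defence genes listed, 36 were tested, 10 higher and 26 lower in AF, with a median log2 fold change of -0.64. Apart from Nos2, edgeR called 0 members. Below an unadjusted p of 0.05 there were 11 lower and 0 higher, DESeq2 called 7 lower and 0 higher, and 19 had both AF libraries below SPF against 5 above. Without SPF replicate 4 the median was -0.36, with 25 of 36 lower. Lymphocyte marker levels, given with the class II genes below, moved the same way, and their part in these values was not tested.

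Among 15 tested genes of mucins and glycosylation, 12 were lower in AF and 3 higher, with a median of -0.52. Without SPF replicate 3 the median was -0.31, with 10 lower and 5 higher. The glycosyltransferase gene B3gnt7 was at 46.5 and 32.5 CPM in SPF, at 15.4 and 13.2 CPM in GF and at 8.64 and 9.32 CPM in AF, a log2 fold change of -2.13 (SE 0.25, edgeR adjusted p = 0.216, DESeq2 adjusted p = 2.32e-07). The membrane mucin Muc13 was at 2108 and 2381 CPM in SPF and at 923 and 862 CPM in AF (DESeq2 adjusted p = 7.52e-04). For B3gnt3 the levels were 153 and 199 CPM against 100.3 and 88.5 CPM, and for the fucosyltransferase gene Fut4 16.3 and 14.3 CPM against 10.7 and 8.96 CPM. All 4 had both AF libraries below both SPF libraries. Over the 15 genes tested, 5 had both AF libraries below both SPF libraries and 1 had both above, where 22.7% and 21.9% of all genes did. edgeR called 0 of the list, with 4 lower and 0 higher at an unadjusted p below 0.05, and DESeq2 called B3gnt7 and Muc13.

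**Figure D2:**
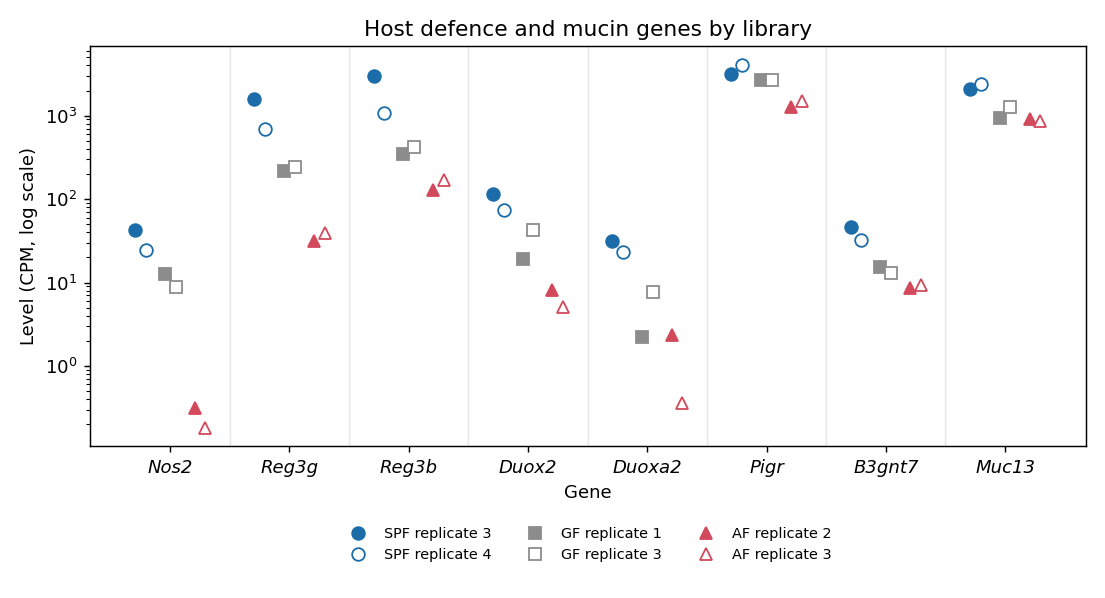
Levels of 6 host defence genes and of B3gnt7 and Muc13 in each library, in CPM on a log axis, with circles for SPF, squares for GF and triangles for AF. Every gene shown has both AF libraries below both SPF libraries, and the GF libraries lie between them for every gene but Duoxa2. For Duoxa2 GF replicate 1 (2.25 CPM) lies just below AF replicate 2 (2.38 CPM).

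MHC class II genes, which display peptides to CD4 T cells, were at very low levels in AF. Cd74, the invariant chain that guides class II molecules, was at 282 and 332 CPM in SPF and at 3.17 and 2.95 CPM in AF, 100.3-fold lower by the means. Ciita, the transactivator of these genes, was at 8.76 and 13.8 CPM in SPF and at 0.48 and 0.66 CPM in AF, a log2 fold change of -4.28 (SE 0.78). Of 11 genes listed 7 were tested, and all 7 were lower in AF, with both AF libraries below both SPF libraries. edgeR called 0 of the 7. All 7 were below an unadjusted p of 0.05 and all 7 were called by DESeq2, and the median log2 fold change was -5.25.

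The chains H2-Aa, H2-Ab1 and H2-Eb1 form the class II molecules themselves. H2-Ab1 was at 124 and 189 CPM in SPF and at 6.66 and 4.93 CPM in AF, with a log2 fold change of -4.76 (SE 1.06, edgeR adjusted p = 0.365, DESeq2 adjusted p = 4.96e-06). H2-Aa was at 48 and 72.7 CPM against 2.14 and 1.08 CPM, and H2-Eb1 at 49.6 and 67.8 CPM against 0.79 and 2.16 CPM. The peptide loading chains followed. H2-DMa was at 14.5 and 14 CPM in SPF and at 0.95 and 0.78 CPM in AF, and H2-DMb1, the one tested member outside the rule for naming, at 15.8 and 18.3 CPM against 0.079 and 0.24 CPM. Per transcript length the order in SPF was Cd74 (316 TPM on average), H2-Ab1 (176), H2-Aa (67.1), H2-Eb1 (62.6), H2-DMb1 (15.2), H2-DMa (11.9) and Ciita (2.35).

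The 250 bases before the starts of 3 of these genes are shown, as class II genes share promoter elements. Capitals mark TGATTGG, read on either strand, the core of the Y box bound by NF-Y. The windows are chr17:34287824-34288073 for H2-Aa (minus strand), chr17:34305617-34305866 for H2-Eb1 (plus strand) and chr17:34152941-34153190 for H2-DMb1 (plus strand), from RefSeq on GRCm38.p6.
H2-Aa: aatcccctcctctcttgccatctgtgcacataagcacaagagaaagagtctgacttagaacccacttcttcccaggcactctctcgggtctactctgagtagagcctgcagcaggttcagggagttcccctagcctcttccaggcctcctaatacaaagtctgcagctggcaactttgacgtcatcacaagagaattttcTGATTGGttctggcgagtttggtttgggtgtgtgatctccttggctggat
H2-Eb1: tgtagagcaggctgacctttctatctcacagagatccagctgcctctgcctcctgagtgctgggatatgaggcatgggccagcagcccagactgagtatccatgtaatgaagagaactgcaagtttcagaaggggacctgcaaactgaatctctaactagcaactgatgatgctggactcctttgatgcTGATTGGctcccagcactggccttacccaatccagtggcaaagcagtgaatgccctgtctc
H2-DMb1: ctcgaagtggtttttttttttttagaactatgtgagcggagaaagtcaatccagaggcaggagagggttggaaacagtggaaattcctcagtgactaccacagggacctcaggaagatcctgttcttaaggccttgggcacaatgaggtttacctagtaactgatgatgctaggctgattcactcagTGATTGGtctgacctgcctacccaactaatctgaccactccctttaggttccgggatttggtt
Each holds 1 copy, starting 50, 61 and 63 bases before the RefSeq start, and 7.23% of all 32851 windows hold at least 1. Leaving out Cd74, 4 of the 6 other tested class II genes had an entry in the table, and 3 of these held the motif. The RefSeq start of H2-DMb1 lies 119 bases from the GENCODE start of the gene.

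In GF the 2 libraries disagreed. Summed over the class II list, SPF held 543 and 708 CPM, GF replicate 1 held 36.1 and replicate 3 held 486, and AF held 14.3 and 12.8. Lymphocyte markers differed between libraries in a similar way. Of 27 lymphocyte genes listed 20 were tested, all 20 lower in AF than in SPF (median -2.51), and their list summed to 280 and 107 CPM in SPF, to 49.9 and 463 in GF and to 30.3 and 19.8 in AF. SPF replicate 4 had less lymphocyte RNA than replicate 3 but more class II RNA. Gzma, a granzyme of these cells, was at 79.2 and 29.8 CPM in SPF and at 4.76 and 3.55 CPM in AF. Gzmb stood at 42.3 and 15.3 CPM against 2.22 and 2.65 CPM, and the chemokine gene Ccl5 at 38.2 and 15.5 CPM against 3.41 and 1.14 CPM. Itgae, the integrin of intraepithelial T cells, was at 14.9 and 5.26 CPM against 1.19 and 1.14 CPM. edgeR called 0 of the 20, with 6 lower and 0 higher at an unadjusted p below 0.05, and DESeq2 called these 4. In bulk samples fewer cells of a type and less RNA per cell cannot be told apart. The part of lymphocyte RNA in the class II difference was not tested.

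Those markers of cells that carry class II constitutively that could be tested were lower in AF as well. All 3 tested genes of the B and plasma cell list were lower, with a median of -3.5 (-7.73 without AF replicate 3), and all 9 tested genes of the myeloid and dendritic list, with a median of -1.25 (-0.81 without SPF replicate 3). Cd79a and Ms4a1 of B cells, and Flt3, Xcr1 and Clec9a of dendritic cells, had at most 4 counts in either group, but both lists held more than these genes. The summed B and plasma cell list was 8.25 and 3.18 CPM in SPF and 0.56 and 1.68 CPM in AF. The myeloid and dendritic list summed to 21.5 and 13.8 CPM in SPF and 9.35 and 8.54 CPM in AF, and the dendritic integrin Itgax was at 2.36 and 1.38 CPM against 0.24 and 0.54 CPM. Of the 20 genes on that list 9 were tested, and 5 of these had both AF libraries below both SPF libraries. C1qa, a macrophage marker with too few counts to be tested, went the other way, at 0.23 and 0.14 CPM against 0.48 and 0.54 CPM. The part of these cells' RNA in the class II difference was not tested.

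**Figure D3:**
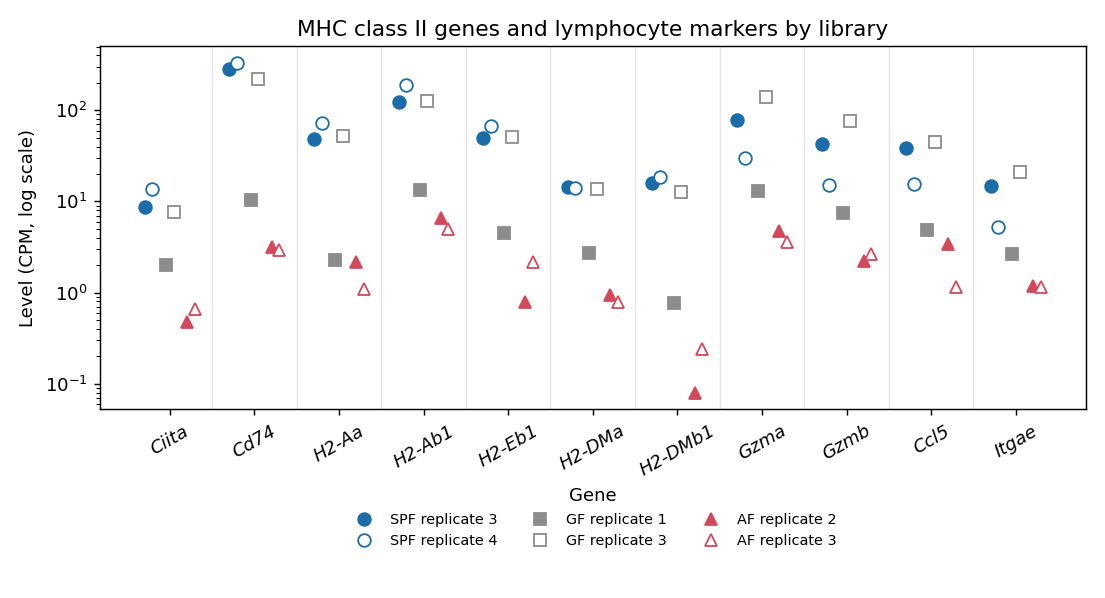
Levels of the 7 tested MHC class II genes and of 4 lymphocyte markers in each library, in CPM on a log axis. Circles are SPF, squares GF and triangles AF, with replicate numbers in the key. The AF libraries are lowest for each gene, and GF replicate 3 lies near or above SPF where GF replicate 1 lies below it.

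Lysosomal genes of antigen processing had smaller differences. Of 16 tested, 11 were lower and 5 higher, with a median of -0.13, which was -0.28 without SPF replicate 3 and -0.049, with 8 higher and 8 lower, without SPF replicate 4. edgeR called 0, with 3 lower and 1 higher at an unadjusted p below 0.05, and DESeq2 called 0. Ctss, the cathepsin that trims the invariant chain, was at 62.5 and 97.1 CPM in SPF and at 40.4 and 35.7 CPM in AF. Ctse, another cathepsin, went the other way, at 7 and 7.4 CPM against 32 and 20.6 CPM (edgeR adjusted p = 0.404).

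MHC class I presentation, which shows peptides of the cell's own proteins to CD8 T cells, was lower by a small factor across most members. Of 29 genes tested 27 were lower and 2 higher, the median log2 fold change being -0.76, and 23 had both AF libraries below both SPF libraries. edgeR called 0, with 11 lower and 1 higher at an unadjusted p below 0.05, and DESeq2 called 2 lower and 1 higher. B2m, the light chain, was at 763 and 1273 CPM in SPF and at 541 and 444 CPM in AF, with a log2 fold change of -1.05 (SE 0.40, edgeR adjusted p = 0.418). H2-K1, a classical heavy chain, was at 1255 and 2137 CPM against 1122 and 874 CPM (edgeR adjusted p = 0.593). The spread within a group was about as wide as the difference for both genes.

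The peptide transporter gene Tap1 was at 134 and 190.3 CPM in SPF and at 71.3 and 49.5 CPM in AF (log2 fold change -1.42, SE 0.40, edgeR adjusted p = 0.388). Psmb9 and Psmb8, of the immunoproteasome, were at 55.7 and 57.3 CPM against 24.8 and 21.2 CPM, and at 131 and 169 CPM against 83.4 and 71.9 CPM. Nlrc5, the transactivator of class I genes, was at 24.1 and 40.5 CPM in SPF, at 1.48 and 14.6 CPM in GF and at 6.42 and 4.15 CPM in AF. The nonclassical genes split. H2-Q1 was at 108 and 224 CPM in SPF and at 60.9 and 52.7 CPM in AF, while H2-Q10 was higher in AF, at 9.08 and 10.7 CPM against 25 and 29.6 CPM (log2 fold change 1.47, SE 0.23, edgeR adjusted p = 0.276, DESeq2 adjusted p = 0.0014). These similar genes can share reads that RSEM divides among them, and RSEM's posterior SD for H2-Q10 was at most 2.31% of the count.

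Genes of lipid presentation and ligands seen by T cells were counted together as a further list. Of 22 tested 18 were lower in AF and 4 higher, with a median of -0.82. Btnl6 and Btnl4, butyrophilin-like genes of the family that maintains intestinal gamma delta T cells, were at 146 and 224 CPM against 90 and 72.1 CPM and at 45.5 and 55.5 CPM against 35.8 and 25.7 CPM. Tnfsf10, a death ligand, was at 49.5 and 52.2 CPM in SPF and at 22.2 and 25.2 CPM in AF, and Tnfsf13, which supports IgA-producing cells, at 13.2 and 22.6 CPM against 6.34 and 4.87 CPM. edgeR called 0, with 9 lower and 0 higher at an unadjusted p below 0.05, and DESeq2 called Tnfsf10, Tnfsf13 and Btnl6 (adjusted p = 0.00278, 0.0128 and 0.0316).

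Interferon-stimulated genes were lower in AF too, with the widest differences among the GTPases that defend cells against vacuolar microbes. All 14 tested GTPase genes were lower, with a median of -1.69 (-1.08 without SPF replicate 3), and 11 had both AF libraries below SPF. Irgm2 was at 34.6 and 51.1 CPM in SPF, at 9.42 and 18.8 CPM in GF and at 10.5 and 7.21 CPM in AF, a log2 fold change of -2.28 (SE 0.42, edgeR adjusted p = 0.313, DESeq2 adjusted p = 6.86e-04). Igtp was at 77.6 and 122 CPM in SPF and at 17 and 18 CPM in AF, and Gbp6 at 34.4 and 47.2 CPM against 6.1 and 8.24 CPM. Irgm1 differed less, at 40.5 and 34.3 CPM against 19.7 and 23 CPM. edgeR called 0 of the 14, with 7 lower at an unadjusted p below 0.05 and none higher, and DESeq2 called 4 lower. The median level of the GTPase list, on the centred log2 scale, was 0.84 and 0.72 in SPF, -0.89 and 0.61 in GF and -0.57 and -0.75 in AF. That of the lymphocyte list was 1.24 and 0.039 in SPF, -0.67 and 1.89 in GF and -0.97 and -1.47 in AF. In both lists GF replicate 3 was above GF replicate 1 and the AF libraries were below SPF, and the part of lymphocyte RNA in the interferon lists was not tested.

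Of 42 antiviral interferon-stimulated genes tested 40 were lower in AF, with a median of -0.76, and 32 had both AF libraries below SPF. Without SPF replicate 4 the median was -0.43 and 33 of 42 were lower. Ifi44 was at 14.8 and 12.4 CPM in SPF, at 1.44 and 2.95 CPM in GF and at 2.7 and 3.43 CPM in AF. Herc6, a ubiquitin ligase of the interferon response, was at 38.3 and 58.8 CPM in SPF and at 15.1 and 13.7 CPM in AF. Trim30a stood at 23.1 and 33.3 CPM against 7.77 and 10.04 CPM, and Parp9 at 93.7 and 121 CPM against 54.9 and 53 CPM. edgeR called 0, with 16 lower and 0 higher at an unadjusted p below 0.05, and DESeq2 called 6 lower. In AF versus GF, which shares the AF libraries, the median of the list was 0.43.

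The receptors and signalling genes above them differed less. All 18 tested were lower, with a median of -0.30, but without SPF replicate 4 the median was -0.0052 and the split 9 higher and 9 lower. It was -0.56 without SPF replicate 3, -0.47 without AF replicate 2 and -0.16 without AF replicate 3. Irf1, a transcription factor of the interferon response, was at 184 and 263 CPM in SPF and at 156 and 114 CPM in AF (edgeR adjusted p = 0.482). Irf8 was at 83.9 and 106 CPM against 43.8 and 31.9 CPM, and was the 1 member called by DESeq2 (adjusted p = 0.0237). The feedback inhibitor Socs3 was at 81.7 and 82.9 CPM against 53.4 and 31.2 CPM. edgeR called 0 of the 18, with 3 lower and 0 higher at an unadjusted p below 0.05.

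Genes of xenobiotic metabolism made up a broad set of lower values in AF, among them known targets of the nuclear receptors CAR and PXR. Of 57 tested 50 were lower and 7 higher, with a median of -0.89. edgeR called 0, with 27 lower and 2 higher at an unadjusted p below 0.05, and DESeq2 called 15 lower and 1 higher. Without SPF replicate 4 the median was -0.40, with 39 lower and 18 higher, and without SPF replicate 3 it was -1.36. SPF replicate 4 was also the library highest in brush border enterocyte markers, whose levels are given above and whose list shares Anpep with the peptidases and Fabp2 and Apoa4 with fat absorption. Their part in these values, and in those of the peptidases, transporters and fat absorption genes below, was not tested.

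Cyp2b10, a classical CAR target, was at 179 and 498 CPM in SPF, at 172 and 209.5 CPM in GF and at 20.8 and 16.4 CPM in AF, a log2 fold change of -4.18 (SE 0.56, edgeR adjusted p = 0.242, DESeq2 adjusted p = 1.06e-12). Cyp3a11, a classical PXR target, was at 336 and 1207 CPM in SPF and at 58.6 and 43.6 CPM in AF (log2 fold change -3.92, SE 0.66). The carboxylesterase gene Ces1f was at 74.8 and 205 CPM in SPF, at 121 and 77.3 CPM in GF and at 9.51 and 9.02 CPM in AF (log2 fold change -3.92, SE 0.55, DESeq2 adjusted p = 2.01e-10). In each the SPF libraries were unequal, replicate 4 being the higher, and both were above AF.

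Other members, chosen after their values were seen, followed the same pattern. Cyp2c55 was at 28.6 and 132 CPM in SPF and at 5.31 and 4.27 CPM in AF. Gstm1 and Gstm3, glutathione transferases, were at 47.7 and 240.1 CPM against 8.96 and 9.14 CPM, and at 134 and 549 CPM against 23 and 26.8 CPM. Gstm4, next in family, was at 15.2 and 38.5 CPM against 5.55 and 5.65 CPM. The smallest p of the list belonged to Cyp2u1, a fatty acid hydroxylase that was higher in AF, at 20.1 and 22.2 CPM against 3.89 and 3.46 CPM in SPF and 6.39 and 6.37 in GF (log2 fold change 2.52, SE 0.25, edgeR adjusted p = 0.172, DESeq2 adjusted p = 1.80e-10). Among the targets of the aryl hydrocarbon receptor, which senses plant and microbial compounds, 8 of 9 tested were lower, with a median of -0.31 (-0.18 without SPF replicate 4). Nqo1 was at 15.6 and 27 CPM in SPF and at 5.31 and 4.51 CPM in AF. Cyp1a1, the most used readout of that receptor, was at 7 and 32.7 CPM against 2.85 and 6.43 CPM, with GF at 35.1 and 30 CPM (edgeR adjusted p = 0.399). edgeR called 0 of these 9, with 2 lower at an unadjusted p below 0.05 and 0 higher, and DESeq2 called 1.

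Genes for the digestion and uptake of protein were lower in AF. Of 17 brush border peptidases tested 16 were lower and 1 higher, with a median of -0.71 (13 of 17 lower and a median of -0.36 without SPF replicate 4, and -1.11 without SPF replicate 3). Anpep, aminopeptidase N, was at 3026 and 3840 CPM in SPF, at 3720 and 3713 CPM in GF and at 934 and 757 CPM in AF, a log2 fold change of -2.02 (SE 0.43, edgeR adjusted p = 0.353, DESeq2 adjusted p = 1.42e-09). GF lay with SPF for this gene, and AF far below both. Enpep, the glutamyl aminopeptidase, was at 508 and 589 CPM in SPF, at 648 and 503 CPM in GF and at 263 and 233 CPM in AF. Mep1b, a meprin subunit, was at 641 and 1020 CPM in SPF and at 369 and 276 CPM in AF, and Dpp4, a dipeptidyl peptidase, at 302 and 517 CPM against 193 and 156 CPM. edgeR called 0, with 6 lower and 0 higher at an unadjusted p below 0.05, and DESeq2 called 4 lower.

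Of 21 transporters of peptides and amino acids 15 were lower and 6 higher, with a median of -0.43, which was -0.71 without SPF replicate 3 and -0.26 without SPF replicate 4. Slc36a1, a proton-coupled amino acid transporter, averaged 135 ± 49.7 CPM in SPF and 47.4 ± 5.93 CPM in AF (SD, n = 2 each, DESeq2 adjusted p = 0.0118). Slc43a2 and Slc16a10, for large neutral and aromatic amino acids, were at 403 and 697 CPM against 217 and 187 CPM, and at 141 and 221 CPM against 85.5 and 76.8 CPM. The peptide transporter gene Slc15a1 overlapped between the groups, at 157 and 271 CPM in SPF and 163 and 107 CPM in AF (edgeR adjusted p = 0.554). edgeR called 0, with 5 lower and 0 higher at an unadjusted p below 0.05, and DESeq2 called 3 lower. Prodh, which opens proline breakdown, was higher in AF, at 37.4 and 23.6 CPM against 54.5 and 58.4 CPM (edgeR adjusted p = 0.388). In the list of arginine, urea and glutamine metabolism 11 of 19 genes were higher, with a median of 0.13, which was 0.27 without AF replicate 2, -0.27 without AF replicate 3, 0.22 without SPF replicate 3 and 0.017 without SPF replicate 4. Of the targets of ATF4, the factor of the amino acid stress response, 15 of 23 were higher, with a median of 0.28, which was -0.15 without AF replicate 3, 0.79 without SPF replicate 3 and -0.16 without SPF replicate 4. edgeR and DESeq2 called 0 of these 23, with 0 higher and 1 lower at an unadjusted edgeR p below 0.05. Both AF libraries lay above both SPF libraries for 5 of them and below for 3.

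The list medians of fat absorption and fatty acid synthesis had opposite signs, and both moved with the SPF library used. Of 28 genes of fat absorption and chylomicrons 20 were lower in AF and 8 higher, with a median of -0.53, which was -0.22 without SPF replicate 4 and -0.95 without SPF replicate 3. Mttp, which loads lipid onto chylomicrons, was at 1338 and 2425 CPM in SPF and at 723 and 610 CPM in AF (edgeR adjusted p = 0.388, DESeq2 adjusted p = 0.00797). Gpat3, an acyltransferase of triglyceride synthesis, was at 66.7 and 110 CPM against 40.7 and 30.8 CPM, and the chylomicron trafficking gene Sar1b at 55.5 and 90.8 CPM against 32.6 and 32.6 CPM. edgeR called 0 of the 28, with 9 lower and 1 higher at an unadjusted p below 0.05, and DESeq2 called 4 lower.

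Of 14 genes of fatty acid synthesis 12 were higher in AF, with a median of 0.86, which was 0.14 without SPF replicate 4, 2.21 without SPF replicate 3 and 0.48 without AF replicate 3. Scd1, the desaturase that makes oleate, stood apart from the rest. It was at 0.51 and 0.35 CPM in SPF, at 2.37 and 0.48 CPM in GF and at 41.9 and 40.2 CPM in AF, 96-fold higher by the means, with a log2 fold change of 6.53 (SE 0.75, edgeR adjusted p = 0.216, DESeq2 adjusted p = 2.59e-16). Pnpla3, a lipase induced with lipogenesis, had 0 counts in SPF and 26 in AF, at least 10.7-fold higher when 3 counts are taken as the group's floor. Elovl6, an elongase, was lower in AF, at 99.5 and 127 CPM against 55.3 and 75.2 CPM. edgeR called 0 of the 14, with 2 higher and 1 lower at an unadjusted p below 0.05, and DESeq2 called Scd1 and Pnpla3. Both AF libraries lay above both SPF libraries for 5 of the 14 and below them for 1. The median level of the list was 0.11 and -1.36 in SPF replicates 3 and 4 and 0.34 and 0.48 in AF. Among PPAR targets 20 of 30 were lower, with a median of -0.26. It was -0.52 without SPF replicate 3, -0.45 without AF replicate 2 and -0.027, with 14 higher and 16 lower, without SPF replicate 4. Angptl4, a lipase inhibitor that microbes are known to hold down, overlapped, at 30.5 and 52.6 CPM in SPF and 50.2 and 33.3 CPM in AF, with GF at 122 and 209 CPM.

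Fgf15, the ileal hormone that signals bile acid levels to the liver, was at 3.43 and 1.73 CPM in SPF and at 12.3 and 22.2 CPM in AF, a log2 fold change of 2.72 (SE 0.51, edgeR adjusted p = 0.313, DESeq2 adjusted p = 2.43e-04). The bile acid exporter gene Abcc3 went the other way, at 101 and 175 CPM against 44.5 and 37.3 CPM (DESeq2 adjusted p = 0.00245). Of 9 bile acid genes tested 4 were higher and 5 lower. edgeR called 0, with 1 higher and 2 lower at an unadjusted p below 0.05, and DESeq2 called these 2 genes. Mt1 and Mt2, metallothioneins that bind zinc, were at 33.4 and 21.8 CPM against 97.8 and 91.8 CPM, and at 5.24 and 2.28 CPM against 21.6 and 21.8 CPM. Both were called by DESeq2 (adjusted p = 5.19e-04 and 0.0135) and neither by edgeR (adjusted p = 0.313 and 0.388). The zinc exporter gene Slc30a1 was at 25.9 and 32.9 CPM in SPF and at 16.5 and 12.8 CPM in AF, and Slc11a2, the iron importer, at 71 and 122 CPM against 41.9 and 41.1 CPM. In the list of iron, calcium and vitamin uptake 8 of 23 tested genes were higher and 15 lower, with a median of -0.33. It was 0.018 without SPF replicate 4. edgeR called 0 of the 23, with 2 higher and 4 lower at an unadjusted p below 0.05, and DESeq2 called 2 higher and 2 lower. Aqp8, a water channel, had 288 counts in SPF (3.34 and 14.9 CPM) and 0 in either AF library, at least 77.9-fold lower by the same floor, with GF at 7.76 and 5.35 CPM (edgeR adjusted p = 0.313, DESeq2 adjusted p = 4.96e-06).

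Circadian clock genes split in both directions. The median of the list was -0.14, which was 0.051 without SPF replicate 4 and -0.32 without SPF replicate 3. Of 18 tested 8 had both AF libraries above both SPF libraries and 8 below. Nr1d1, which encodes the repressor REV-ERB alpha, was at 7.18 and 17 CPM in SPF, at 77.9 and 69.3 CPM in GF and at 141 and 119 CPM in AF, a log2 fold change of 3.43 (SE 0.44, edgeR adjusted p = 0.242, DESeq2 adjusted p = 1.75e-10). Nr1d2 was at 2.55 and 5.26 CPM in SPF and at 17.8 and 14.9 CPM in AF, and Dbp, an output activator, at 0.74 and 0.48 CPM against 3.96 and 3.79 CPM. Tef and Per1, also of the phase opposite to Arntl, were at 5.14 and 6.09 CPM against 18.5 and 11.8 CPM, and at 14.5 and 6.02 CPM against 36.5 and 40 CPM.

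Arntl, which drives the cycle with Clock, was at 44.2 and 57.8 CPM in SPF and at 35 and 34.3 CPM in AF (edgeR adjusted p = 0.429). Usp2 was at 26.3 and 39.6 CPM against 12.1 and 12.1 CPM, and Per2 at 26.9 and 30.9 CPM against 13 and 15.8 CPM. Usp2 and Per2 thus lay on the other side from Per1 and Nr1d1. edgeR called 0 of the 18, with 7 higher and 7 lower at an unadjusted p below 0.05, and DESeq2 called 5 higher and 1 lower. Tef, Per1 and Per2 were chosen after their values were seen. The hour of collection was not tested, and AF and GF libraries lay on the same side of SPF for all 8 genes named.

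**Figure D4:**
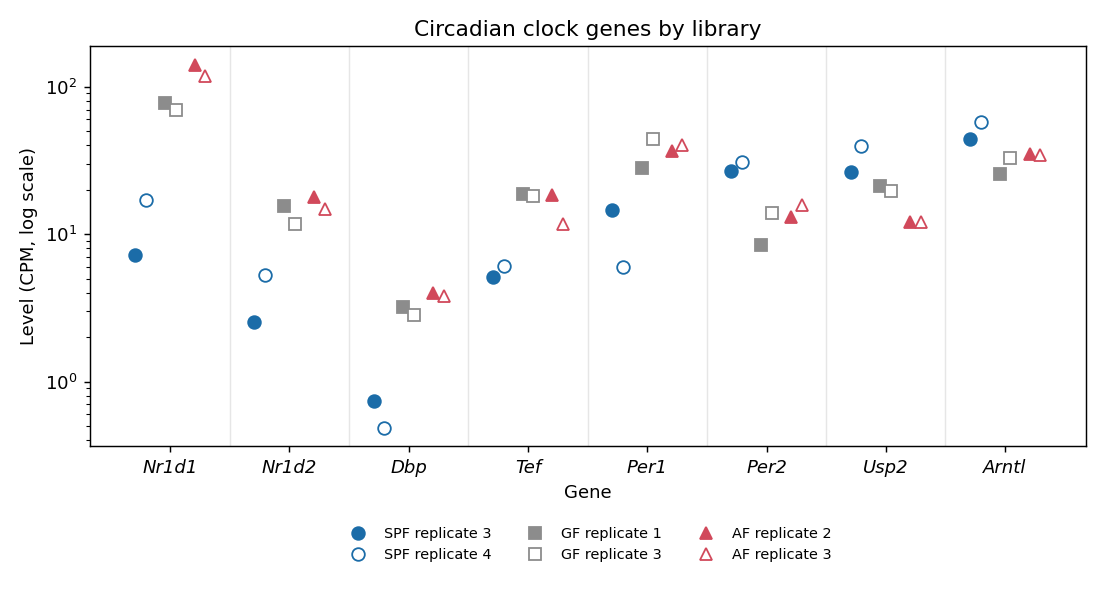
Levels of 8 circadian clock genes in each library, in CPM on a log axis, with circles for SPF, squares for GF and triangles for AF. Both AF libraries lie above both SPF libraries for the first 5 genes and below them for Per2, Usp2 and Arntl.

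Markers of rare secretory cells were higher in AF, and both SPF libraries were below every GF and AF library in them, replicate 4 the furthest. All 17 tuft cell genes tested were higher, with a median of 2.27, which was 1.55 without SPF replicate 4 and 3.98 without SPF replicate 3. Trpm5, the cation channel of taste signalling, was at 31.6 and 8.58 CPM in SPF, at 42.7 and 63 CPM in GF and at 89.3 and 96.6 CPM in AF (edgeR adjusted p = 0.388, DESeq2 adjusted p = 0.0135). Dclk1 was at 2.78 and 0.97 CPM against 9.04 and 8.84 CPM, and Alox5ap, of leukotriene synthesis, at 1.72 and 0.48 CPM against 9.28 and 7.27 CPM. edgeR called 0 of the 17, with 12 higher and 0 lower at an unadjusted p below 0.05, and DESeq2 called 4 higher. In 15 of the genes both AF libraries lay above both SPF libraries. The median level of the tuft list was -0.38 and -1.98 in SPF replicates 3 and 4, 0.097 and 0.46 in GF and 1.04 and 0.85 in AF.

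Of 23 enteroendocrine genes tested 22 were higher in AF and 1 lower, with a median of 1.63, which was 0.98 without SPF replicate 4 and 3.1 without SPF replicate 3. The median level of the list was -0.33 and -2.19 in SPF replicates 3 and 4, 0.032 and 1.12 in GF and 0.45 and 0.85 in AF. Sst, for somatostatin, was at 50.7 and 3.46 CPM in SPF and at 230.3 and 391 CPM in AF, and Gip, the incretin hormone of the upper intestine, at 146 and 17 CPM against 493 and 769 CPM. The granule genes Vgf and Scg5 were at 5.47 and 2.56 CPM against 12.8 and 15.5 CPM, and at 3.66 and 1.18 CPM against 9.2 and 11.2 CPM. edgeR called 0, with 8 higher and 0 lower at an unadjusted p below 0.05, and DESeq2 called Sst and Gip (adjusted p = 0.00791 and 0.0307). Lists of Paneth, goblet, stem and dividing cells gave medians of 1.06, -0.24, 0.20 and 0.18. They were 0.23, -1.12, -0.41 and -0.72 without SPF replicate 4, 6.21, 2.21, 2.95 and 3.1 without SPF replicate 3, and 0.41, -0.26, -0.25 and -0.48 without AF replicate 3. No member of these 4 lists was called by edgeR or DESeq2, or was below an unadjusted p of 0.05.

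The rule for naming takes a set number of genes per direction, so other genes of small p go unnamed. Ptk6, for example, was at 42.3 and 27.05 CPM in SPF and at 7.1 and 4.93 CPM in AF. Its unadjusted edgeR p of 3.43e-04 was below those of Capn1 and Rogdi, named below (3.85e-04 and 3.91e-04). A few of the genes that the rule took for their small p lay outside these lists. In the lower direction they were Ccnjl, a cyclin-like gene, at 8.53 and 12.5 CPM in SPF and at 0.87 and 1.08 CPM in AF, and Mfsd4b3, a transporter gene, at 24.8 and 30.8 CPM against 9.04 and 7.09 CPM. DESeq2 called both (adjusted p = 6.59e-08 and 5.04e-05) and edgeR called neither (adjusted p = 0.216 and 0.242). In the higher direction Capn1, a calcium-dependent protease, was at 116 and 155 CPM in SPF, at 124 and 142 CPM in GF and at 783 and 560 CPM in AF, a log2 fold change of 2.31 (SE 0.33, edgeR adjusted p = 0.259, DESeq2 adjusted p = 5.17e-09). Capn1 was thus apart in AF from both other groups, as Isx, Bco1, Scarb1 and Pkd1l2 were. Rogdi was at 6.58 and 5.88 CPM in SPF and at 22.8 and 19.6 CPM in AF (edgeR adjusted p = 0.259). The histone gene Hist1h2bk had 2 counts in SPF and 160 in AF, 98.6-fold more in AF for the depth (exact 95% interval from counting, 26.8 to 821). RSEM's posterior SD reached 22.5% of its count, so this count is uncertain.

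**Figure D5:**
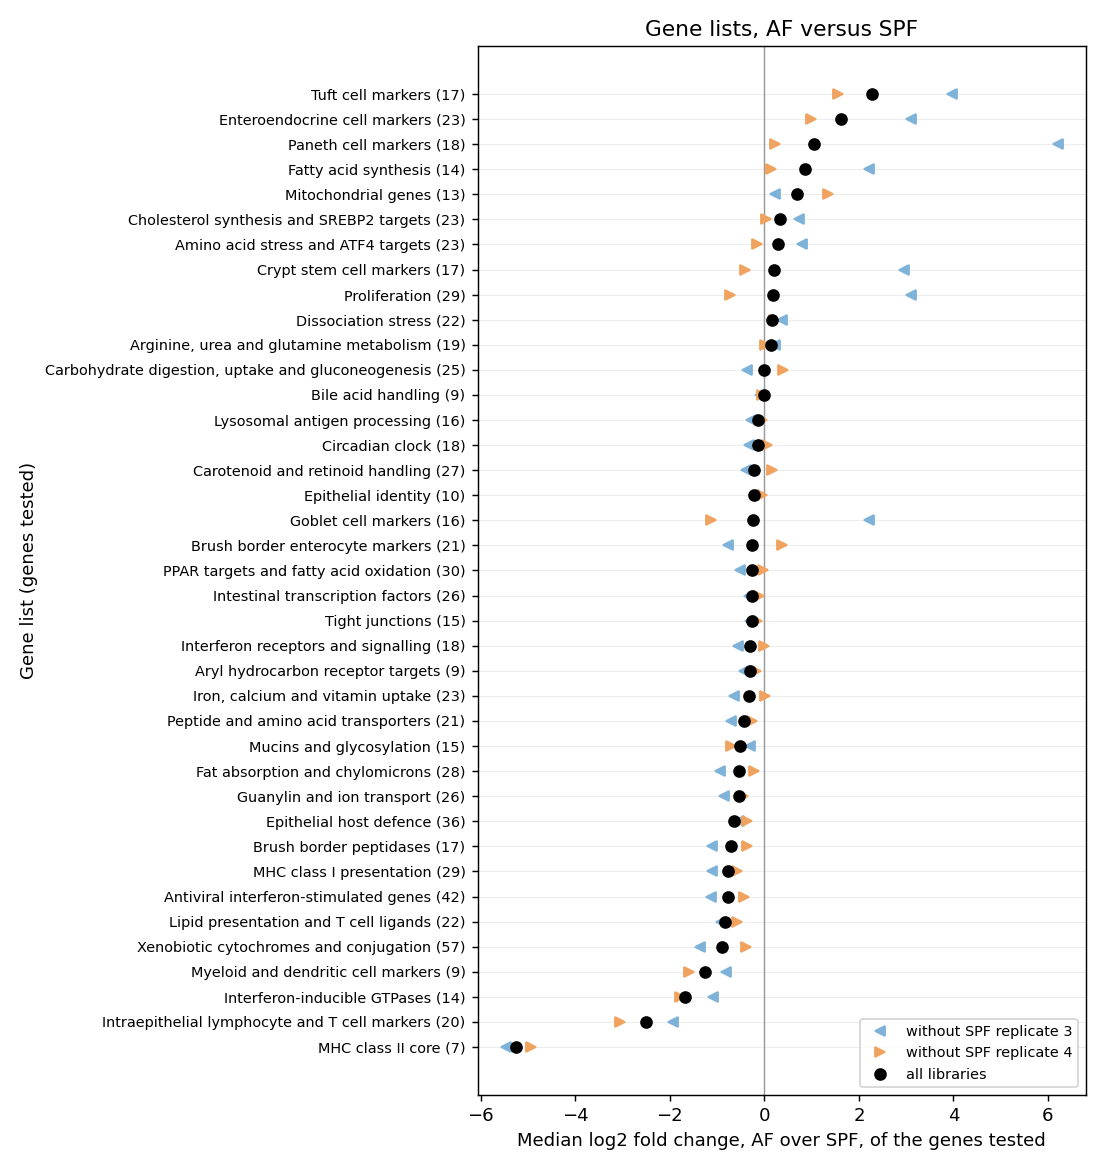
Median log2 fold change, AF over SPF, of each gene list with at least 5 genes tested, with all libraries (black circles), without SPF replicate 3 (blue triangles) and without SPF replicate 4 (orange triangles). The class II list stays near -5.25 in all 3, while the Paneth, goblet, stem cell and proliferation lists spread widely with the SPF library used.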

How the data were processed

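RNA was purified from sorted small intestinal cells with RNeasy columns and made into libraries with a TruSeq RNA kit, per the labels' protocols. The genome build GRCm38 (mm10) and the tools edgeR 3.16.5, RSEM and STAR 2.5.2b are listed in the submitters' processing notes. The sources used here do not give RSEM's version, the annotation, read filters or the strand setting. Per the file headers, the authors deposited RSEM expected counts per gene, unscaled between libraries, and TPM, scaled by effective length to a fixed total.

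Expected counts were rounded. Of 51912 genes, 51719 matched a symbol in GENCODE M21 of GRCm38, the source of symbols and coordinates, and the 193 unmatched IDs took up to 0.00897% of the counts per library. Genes on X and Y were removed before TMM scaling (factors 0.79 to 1.42). edgeR's filterByExpr left 13241 genes. Genes were tested with the quasi-likelihood F test of edgeR 4.0.16 (R 4.3.3 with version 1.17.8 of data.table), with all 6 libraries in 1 fit, 3 residual degrees of freedom and a biological coefficient of variation of 0.367. The contrasts were AF minus SPF and, beside it, AF minus GF. Standard errors are the log2 fold change over the square root of F. Libraries of a group differed beyond sampling noise (chi-square per gene of 45.3, 243 and 198 in AF, GF and SPF) and none held the same values as another. This does not tell separate animals from separate preparations of 1 animal. List levels are medians of log2(CPM + 0.5). Folds against 0 counts are bounds, with 3 counts over the group as the floor. The fit was tested on data simulated with the mean levels and library sizes of these libraries. For AF versus SPF it called 38.1% of genes given a log2 change of 2 and 88.8% of those given 4. It also called 7 unchanged genes, with 12872 genes tested. A gene with a change of either size can thus go uncalled. In the fit of the 6 libraries, Bco1 (log2 fold change 7.2), Cd74 (-6.65) and Scd1 (6.53) were not called. Pkd1l2 (8.05), Nos2 (-7.08) and Isx (-6.27) were.

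Alternatives were DESeq2 1.42.0 (Wald test), edgeR's likelihood ratio test, scaling by median of ratios or by library totals alone, a filter of at least 1 count or of 1 CPM in 2 libraries, limma 3.58.1 on log2(TPM + 1), only the AF and SPF libraries, X and Y genes kept, leaving out mitochondrial genes with 7 pseudogenes or the 20 most abundant genes, calls at an adjusted p below 0.1, and each library left out. With 1 library left its spread is assumed to be like that of the others.

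Genes were named by rule. Per direction these were called genes of at least 5 CPM with the groups apart, or the 8 of smallest p where fewer than 3 passed, predicted genes being passed over. Added to them were set genes of antigen presentation, interferon, defence, carotenoids, the clock and metabolism, 4 to 6 members of each list, and markers of other cell types. The members and lists were chosen with earlier results of these data known. Some genes that this rule names are not reported here.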

Additional observations from a re-analysis of the deposited data

Results flagged for a closer look

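Signal from genes left out of the comparison differed between the groups completely. Y-linked Eif2s3y averaged 22.8 CPM in the AF libraries and was at 0 counts in both SPF libraries. Kdm5d, Ddx3y and Uty, also Y-linked, averaged 16.8, 12.1 and 5.29 CPM in AF and were at 0 counts in SPF.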

How the results depend on the processing

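With all libraries edgeR called 1 gene higher and 2 lower. The counts higher and lower were 128 and 156 with the likelihood ratio test, 103 and 158 with DESeq2, 373 and 414 with no low-count filter, 2 and 1 with library totals alone, 4 and 2 with limma on TPM or with X and Y genes kept, and 1 and 1 with only the AF and SPF libraries. Nos2 was not among those called with library totals (adjusted p = 0.119), and of the 3 genes limma called 1, Isx (adjusted p = 0.0169), with 0.174 for Nos2 and 0.0967 for Pkd1l2. Leaving out 1 library gave 0 to 381 higher and 0 to 211 lower, both highest without SPF replicate 3. The cause was not tested. Library totals alone moved the median of all genes to -0.21, and limma on TPM to -0.31.

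List medians were -4.63 with limma for MHC class II (-5.47 to -4.83 with a library left out), -0.923 with library totals and -1.05 with limma for class I (-1.1 to -0.58), and -0.815 and -0.892 for host defence (-0.649 to -0.36). With a library left out the GTPase median was -2.3 to -1.08. Among lists with at least 5 genes tested, and besides the values given with the lists, medians turned for ATF4 targets (-3.75e-05 with limma, -0.164 to 0.788 with a library left out), cholesterol synthesis (-0.0424, and -0.0356 to 0.733), iron, calcium and vitamin uptake (-0.689 to 0.0184), brush border markers (-0.76 to 0.369), arginine, urea and glutamine metabolism (-0.201 with library totals, -0.255 with limma, -0.267 to 0.269), the clock (-0.316 to 0.0512), bile acid genes (-0.16 to 0.112), carbohydrate genes (-0.141 with library totals, -0.259 with limma, -0.36 to 0.385), dissociation stress (-0.0673 with library totals, -0.101 with limma), the goblet list (0.217 with limma), the stem cell list (-0.159 and -0.0115) and proliferation (-0.207 with library totals). Of 133 named genes with a test, all but Gcsh (-0.00699 with limma) and Angptl4 kept their direction in the 17 alternatives. Angptl4 was -0.162 with library totals, -0.0168 with no filter, -0.364 with limma and -0.338 to 0.447 with a library left out. No paired analysis was possible because the groups share only 1 replicate number. Values near 1 count, such as SPF Pkd1l2, are limited by depth.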

Other observations

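Some further gene groups that the comparison covered showed small or uneven differences. Among 26 intestinal transcription factors 16 were lower in AF and 10 higher, with a median of -0.27, which was -0.11 without SPF replicate 4. Gata5, a zinc finger factor of the villus, was at 76 and 90.8 CPM in SPF, at 63.6 and 71.9 CPM in GF and at 38.2 and 28.6 CPM in AF, and was the 1 member called by DESeq2 (adjusted p = 0.00335). Cdx2, the master factor of intestinal identity, was at 90.1 and 92.9 CPM in SPF and at 57.6 and 65.8 CPM in AF, and DESeq2 did not call it (adjusted p = 0.275). edgeR called 0 of the 26, with 1 higher and 4 lower at an unadjusted p below 0.05.

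Of 25 genes of carbohydrate digestion, uptake and gluconeogenesis 13 were higher in AF and 12 lower, but without SPF replicate 3 the split was 4 and 21 (median -0.36) and without SPF replicate 4 it was 19 and 6 (median 0.39). With all libraries 0 were below an unadjusted p of 0.05 and 0 were called by edgeR or DESeq2. Lct, the lactase gene, was at 1480 and 3483 CPM in SPF and at 1378 and 993 CPM in AF. The glucose transporter gene Slc2a2 was at 162 and 423 CPM against 138 and 135 CPM. In both the SPF libraries differed from each other more than SPF replicate 3 differed from AF. Slc19a3, a thiamine transporter gene, was at 7.65 and 35.1 CPM in SPF and at 4.2 and 3.55 CPM in AF (DESeq2 adjusted p = 0.0353).

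The lists of dissociation stress and mitochondrial genes, read as signs of handling and RNA make-up, had medians of 0.15 and 0.69. Of 22 stress genes tested 20 were higher in AF and 2 lower, and 6 had both AF libraries above SPF against 0 below. Of 13 mitochondrial genes 12 were higher and 1 lower, with 4 above and 0 below. The stress median was 0.37 without AF replicate 2, 0.38 without SPF replicate 3 and 0.012, with 11 higher and 11 lower, without AF replicate 3. The mitochondrial median was 0.22 without SPF replicate 3 and 1.35 without SPF replicate 4. In neither list was any gene below an unadjusted p of 0.05 or called by edgeR or DESeq2.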
